A study of Mus musculus with 24 samples.

Results

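The response of mouse embryonic stem cells (mESCs) to retinoic acid (RA) was measured in cells carrying a hairpin against Med12. By their labels, 3 libraries of shMed12 cells after RA and 3 libraries of shMed12 mESCs were compared across all genes, which makes 6 of the 24 libraries of the study. Every library is poly-A RNA of E14TG2a cells, a line derived from a 129/Ola blastocyst, kept without feeder cells in serum and LIF, the cytokine that holds mESCs pluripotent. The RA groups had spent 24 h at 1e-06 M all-trans RA after LIF was taken away. The reference is the same comparison in cells with shNMC, a hairpin without a mammalian target (3 and 3 libraries), and a further line carries shCdk8 (3 and 3 libraries). All hairpins were stably transfected, and the labels give neither the number of hairpin sequences nor that of clones. They do not say whether replicates are separate cultures, so p-values measure only the spread between these libraries. No group lost LIF without receiving RA, so RA cannot be told apart from LIF withdrawal.

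RA enters the nucleus with carrier proteins and binds RA receptors (Rara, Rarb, Rarg), which sit with retinoid X receptors on direct repeats of a short half-site near their target genes. Among the best known targets are Rarb itself, the RA-degrading enzymes of the Cyp26 family and the 3′ genes of the Hox clusters. Mediator is the complex that links such receptors to RNA polymerase II. Med12, with Med13, cyclin C and Cdk8 or Cdk19, forms its detachable kinase module.

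Med12 itself stood at 35.2, 43.7 and 46.2 CPM (counts per 1e6 gene counts of a library, scaled by TMM) in the shMed12 mESCs and at 38.8, 45.6 and 61.2 CPM after RA. The shNMC libraries stood at 129 to 140 CPM and, after RA, at 94.1 to 144 CPM. All 6 shMed12 libraries thus lay below all 6 shNMC libraries, and RA did not move the transcript past the threshold in shMed12 cells (log2 0.22 ± 0.16 SE, adjusted p = 0.30). Its paralogue Med12l stood at 35.5 ± 3.4 CPM (mean ± SD, n = 3) and 33.6 ± 1.7 CPM after RA in shMed12 cells, against 7.66 and 16.9 CPM in shNMC cells. Of the 7 kinase module genes, Med13l (log2 -0.62) and Ccnc, the cyclin C gene (log2 -0.38), fell with RA and none rose. Among all genes tested 17.5% fell and 19.6% rose.

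The 6 shMed12 libraries held 41.2M to 53.6M gene counts (M for 1e6), at which 3 counts stand for 0.0535 to 0.0770 CPM. Levels in CPM are not scaled by gene length, so they are compared only within a gene. Multiply aligned reads accounted for 46.1% to 48.9%, close to the other hairpin libraries. That was well above the 20.02% to 21.7% of the untransfected and shRing1b libraries. The latter enter no comparison here, but they take part in the gene filter, the scaling and the estimate of the spread. Replicate 3 of the shMed12 mESCs stood below the other 2 for T (3.32 against 17.4 and 18 CPM), Cdx2 (2.48 against 7.05 and 7.16 CPM) and Egr1 (12.2 against 67.2 and 70.5 CPM). Replicate 3 of the RA shMed12 libraries was also the lowest of its group for these genes. Replicate 3 of the RA shNMC libraries was low for Hoxb1 (21.6 against 43.0 and 47.0 CPM).

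The direct repeat with a spacer of 5 bases is the classical site of RA receptors. It was searched in promoter windows of 300 bases (250 before to 50 after a gene start, RefSeq, build GRCm38.p6), which matched 11282 of the 16280 genes tested. A half-site was AGGTCA or its variant AGTTCA, or else GGGTCA or its variant GGTTCA, and both strands were read. Only 6 genes (0.0532% of those with a window) held the repeat, and 2 of them are the RA receptor and the RA-degrading enzyme that head the results below. The 250 bases before their starts are shown because they carry the repeat, which is in capitals. That of Rarb lies at chr14:16575477-16575726 on the minus strand with the repeat 53 to 37 bases before the start. That of Cyp26a1 lies at chr19:37697558-37697807 on the plus strand with the repeat, read from the opposite strand, 32 to 16 bases before the start.
Rarb: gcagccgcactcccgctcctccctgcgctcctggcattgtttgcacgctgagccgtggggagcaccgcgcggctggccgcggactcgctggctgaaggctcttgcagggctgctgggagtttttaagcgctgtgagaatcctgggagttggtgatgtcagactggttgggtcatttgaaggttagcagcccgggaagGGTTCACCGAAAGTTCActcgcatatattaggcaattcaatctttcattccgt
Cyp26a1: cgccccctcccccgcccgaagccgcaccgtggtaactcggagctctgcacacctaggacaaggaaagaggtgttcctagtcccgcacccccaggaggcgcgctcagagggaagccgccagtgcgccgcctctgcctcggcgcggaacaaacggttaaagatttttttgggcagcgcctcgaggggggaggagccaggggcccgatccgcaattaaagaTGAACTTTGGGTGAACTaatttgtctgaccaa
The other 4 genes with the repeat are Ppbp (log2 3.60 in shMed12 cells), Tnfsf13b (1.22), Prokr2 (0.94) and Blvrb (-0.09, adjusted p = 0.73). A gene with several windows was counted once. Of the 1040 genes with a window that rose at least 2-fold, 4 held the repeat (0.385%), and of the 307 that fell at least 2-fold, 0. With a spacer of 2 bases 11 genes held the repeat (0.0975%), and 4 of them rose at least 2-fold. With a spacer of 1 base 30 genes held it (0.266%), and again 4 of them rose at least 2-fold. None of these repeats overlapped the repeat with the spacer of 5. No direct repeat lay in the windows of Dhrs3, Hoxb1, Stra8, Stra6, Cyp26b1, Zfp503 or Hoxa5.

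RA changed a large part of the transcriptome of shMed12 cells. Of 16280 genes tested, 3194 rose (19.6%) and 2850 fell (17.5%), together 37.1%, at an adjusted p under 0.05 (edgeR quasi-likelihood test, Benjamini-Hochberg). By at least 2-fold, 1565 rose (9.61%) and 468 fell (2.87%). The 3 RA libraries did not overlap the 3 mESC libraries for 9428 genes (57.9%). Higher calls made 52.8% of all calls, and 67.2% with upper-quartile scaling. The largest rises among genes of at least 5 CPM were Hoxb2, Hoxb1, Hoxb3, Rarb, Cyp26a1, Zfp503, Stra8 and Hoxa5. The largest falls were Otx2, Foxd3, Enox1, Ly6g6e, Enpp2, Tdh, Tcl1 and Glod5. In CPM the largest rises were Slc38a4, an amino acid transporter, Dusp9, a MAP kinase phosphatase, Agrn, the matrix protein agrin, and Scd2, a fatty acid desaturase. Slc38a4 stood at 597, 621 and 582 CPM and after RA at 1392, 1353 and 1098 CPM (log2 1.09 ± 0.17, adjusted p = 3.9e-05).

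Fewer genes passed the test than in the other lines, by a margin that depended on the model. In shNMC cells 4438 genes rose (27.3%) and 3925 fell (24.1%), together 51.4%. In shCdk8 cells 4339 rose (26.7%) and 4083 fell (25.1%), together 51.7%, with the same number of libraries. With a term for the replicate number (a replicate block), fitted on only the groups compared, the margin to shNMC cells was smaller. There 5033 genes rose and 4755 fell in shMed12 cells, 5334 and 4864 in shNMC cells and 6179 and 5997 in shCdk8 cells. The change differed between shMed12 and shNMC cells, by a test of the difference itself, for 820 genes (5.04%), of which 283 changed more positively (1.74%) and 537 more negatively (3.3%) in shMed12 cells. Against shCdk8 cells the counts were 296 (1.82%) and 511 (3.14%), together 4.96%. These counts depend on which libraries are in the fit: against shNMC cells they were 1184 and 1458 in a fit of the 18 shNMC, shMed12 and shCdk8 libraries. Without replicate 2 of the RA shNMC libraries 136 were higher, and without replicate 1 of the shMed12 mESCs 324 were lower.

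**Figure D1:**
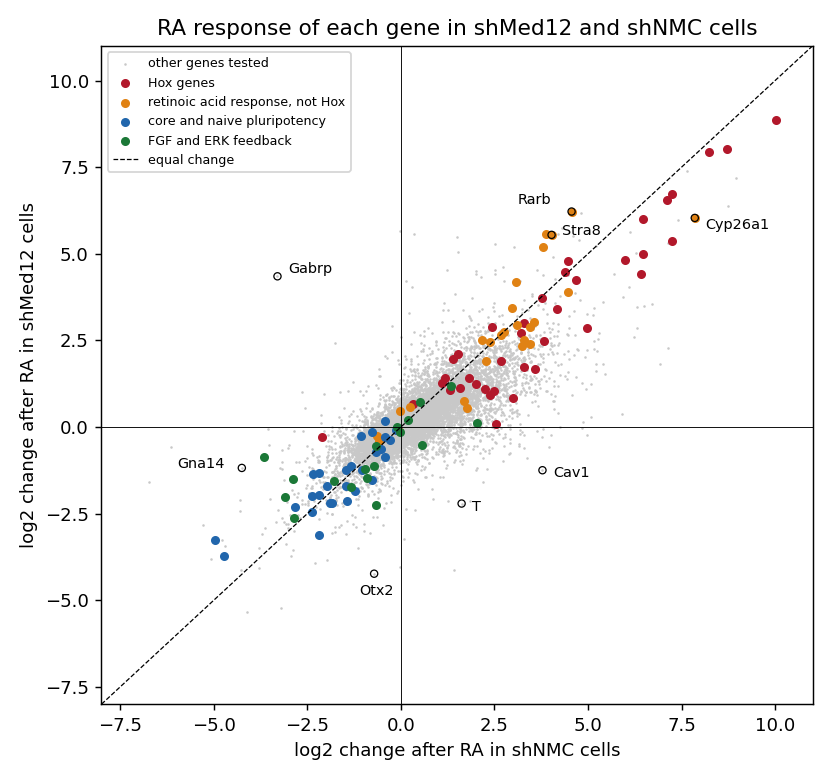
Each point is a gene; the x axis is its log2 change after RA in shNMC cells and the y axis that in shMed12 cells, with the dashed line at equal change. Hox and RA response genes lie at the upper right and pluripotency genes at the lower left, while Gabrp (log2 4.35 against -3.30), Cav1 and T lie in the quadrants of opposite change.

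To set the response of shMed12 cells beside that of shNMC cells on genes that neither chose, genes were taken from the shCdk8 line. Across all genes its change had a Pearson correlation of 0.92 with that in shNMC and 0.78 with that in shMed12 cells. The choice is thus not neutral between shMed12 and shNMC cells. Of the 2602 genes that rose at least 2-fold in shCdk8 cells (16% of all), 1653 rose in shMed12 cells (63.5%). A further 13 fell and 936 did not pass the test, with a median log2 change of 1.08 over the 2602. In shNMC cells 2379 of them rose (91.4%), with a median of 1.73. The difference between shMed12 and shNMC cells passed the test for 16 of them in the positive and 351 in the negative direction (median -0.63). Before RA, 1034 of the 2602 were already higher in shMed12 than in shNMC cells and 243 lower, against 20.6% and 19.9% of all genes, and the median difference was 0.57. After RA, 604 were higher and 602 lower, against 21.3% and 20.6% of all genes, and the median difference was -0.08. The median difference between the lines at these genes was thus larger before RA than after it.
Fewer genes that fell passed as well. Of the 704 that fell at least 2-fold in shCdk8 cells (4.32% of all), 508 fell in shMed12 cells (72.2%, median log2 -0.94) and 626 in shNMC cells (88.9%, median -1.26). In mESCs 320 of them were lower with shMed12 than with shNMC and 68 higher (median -0.43), and after RA 221 and 158 (median -0.13). In the other direction, 1394 of the 1565 genes that rose at least 2-fold in shMed12 cells rose in shNMC cells (89.1%) and 1392 in shCdk8 cells (88.9%). Across all genes the change in shMed12 cells had a Pearson correlation of 0.78 with that in shNMC cells, and the latter 0.92 with that in shCdk8 cells. These pairs share no library, but genes are not independent replicates.

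Known RA response genes rose in shMed12 cells. Of 30 genes on this list, 26 rose and 1 fell, with a median log2 change of 2.82 (0.03 over all genes). In shNMC cells 25 rose and 2 fell, with a median of 3.17, and the difference between the lines passed for 4 members upward and 3 downward. Rarb, the receptor that RA induces, stood at 0.346, 0.333 and 0.403 CPM in the shMed12 mESCs and at 28.5, 26.9 and 26.3 CPM after RA. The groups were far apart (log2 6.22 ± 0.23, adjusted p = 5.0e-14). In shNMC cells it went from 1.40 to 1.79 CPM up to 29.8 to 40.9 CPM (log2 4.56), and the rise was larger in shMed12 cells by 1.66 on the log2 scale (adjusted p = 0.0016). That difference lay mostly in the level before RA, which was lower with shMed12 (log2 -2.09), while after RA the difference was -0.43 (adjusted p = 0.038).
Stra8, a gene of meiotic entry named for its induction by RA, stood at 6.62, 6.00 and 10.6 CPM and after RA at 352, 333 and 409 CPM. It rose more in shMed12 cells (log2 5.55 against 4.03, adjusted p = 0.0012) but ended below the 968 to 1380 CPM of the RA shNMC libraries, none of which it overlapped. Cdx1, a caudal factor that acts on Hox genes, went from 5.84, 5.21 and 4.17 CPM to 88.1, 102 and 85.9 CPM. Its rise also exceeded that of shNMC cells (log2 4.18 against 3.07, adjusted p = 0.0064). Against shCdk8 cells the rises of Rarb, Stra8 and Cdx1 were larger too, by 1.497, 1.92 and 1.47 (adjusted p = 0.0042, 0.00015 and 0.00061). Zfp503, a zinc finger gene, rose from 0.222 to 0.346 CPM to 9.88 to 16.9 CPM (log2 5.56), but the difference from shNMC cells did not pass (1.67, adjusted p = 0.20).

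Among genes that handle retinoids, enzymes that degrade RA rose, as did the carriers Crabp2 and Rbp4, and the dehydrogenases that make RA did not pass. Of 24 tested members of the retinoid metabolism and binding list 8 rose and 2 fell in shMed12 cells (median log2 0.27). The shares of all genes there were 19.6% and 17.5%. In shNMC cells 12 rose and 3 fell (median 1.48), against 27.3% and 24.1% of all genes. Cyp26a1, the main RA hydroxylase, stood at 5.26, 5.18 and 2.22 CPM before and 283, 275 and 265 CPM after RA (log2 6.04 ± 0.29, adjusted p = 2.2e-12). In shNMC cells it went from 1.30 to 1.56 CPM to 259 to 377 CPM, a larger rise (difference -1.82, adjusted p = 0.0064). Here shMed12 mESCs started higher (log2 1.54), and after RA the lines did not differ past the threshold (-0.28, adjusted p = 0.34).
Cyp26b1, its relative, rose from 0.231 to 0.439 CPM to 5.79 to 6.35 CPM (log2 4.26). Dhrs3, which reduces retinaldehyde, rose from 3.07, 3.10 and 2.66 CPM to 43.4, 44.7 and 44.4 CPM (log2 3.91). Stra6, a membrane receptor for retinol-binding protein, went from 0.463 to 0.716 CPM to 19.7 to 24.5 CPM (log2 5.19). None of these 3 overlapped between states, and for none did the difference from shNMC cells pass the threshold (0.15, -0.55 and 1.40).
Crabp2, a carrier of RA, rose from 5.24 to 5.86 CPM to 50 to 65.7 CPM (log2 3.42), and Rbp4, the retinol carrier of plasma, by 1.18. Lrat, which esterifies retinol for storage, rose less than in shNMC cells (log2 1.56 against 2.62, adjusted p = 0.019), and less than in shCdk8 cells (-2.06, adjusted p = 8.3e-05). The difference from shNMC cells did not pass without replicate 2 of the shNMC mESCs or without replicate 2 of the RA shMed12 libraries (adjusted p = 0.060 and 0.063). Of the retinaldehyde dehydrogenases that make RA, Aldh1a2 (log2 -0.04) and Aldh1a3 (0.06) overlapped between states, as did Rdh10 (-0.15), which makes retinaldehyde. Adh5 (-0.42) and Rdh13 (-0.22) were the members that fell, the latter not without replicate 1 of the shMed12 mESCs or replicate 2 of the RA shMed12 libraries (adjusted p from 0.050 to 0.18).

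**Figure D2:**
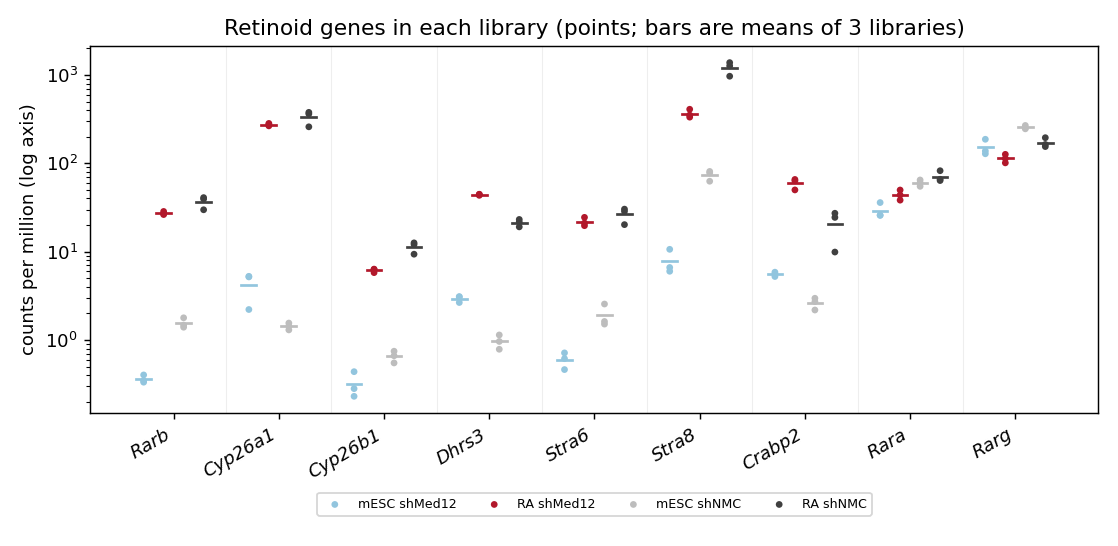
CPM on a log axis of 9 retinoid genes in each library (points, 3 per group; bars are group means) before and after RA in shMed12 and shNMC cells. Rarb and Stra8 start lower in shMed12 than in shNMC mESCs, Cyp26a1 and Dhrs3 higher, and all 4 are separated from their own mESC group after RA.

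Among 12 receptors and co-regulators, 4 rose and 3 fell, against 19.6% and 17.5% of all genes. Besides Rarb, the corepressor Nrip1, itself an RA target, rose from 12.8, 15.8 and 17.6 CPM to 46.9, 50.2 and 75.9 CPM (log2 1.90). The nuclear receptor corepressor Ncor1 (-0.43) and the coactivator Ncoa3 (-0.52) fell. Rara (0.59) and Rxra (0.61) rose and Rarg (-0.41) fell by small amounts. These 3 calls and that of Ncor1 were each lost when single libraries were left out, with adjusted p from 0.050 to 0.12.

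Hox genes rose in all 4 clusters. Hox factors give cells their position along the body axis, and their clusters open from the 3′ end in response to RA. Of 38 Hox genes tested (39 in the files), 30 rose and none fell in shMed12 cells, with a median log2 change of 2.59. In shNMC cells 35 rose and 1 fell, with a median of 3.29. The difference between the lines passed for 0 upward and 3 downward, at Hoxb4, Hoxb13 and Hoxd10. Across all genes it passed for 1.74% upward and 3.3% downward. The strand setting of the counting is not given, so reads of antisense transcripts in the clusters cannot be told apart from those of the genes.
In the HoxB cluster all 10 genes rose (median 5.77). Hoxb1, the most 3′ gene, stood at 0.185, 0.128 and 0.121 CPM and after RA at 35.8, 32.2 and 40.2 CPM (log2 7.94 ± 0.39, adjusted p = 2.6e-12). RA shNMC libraries held 21.6 to 47.0 CPM, which spans the shMed12 values. Hoxb2 rose to 13.2, 13.2 and 17.5 CPM from at most 0.0806 CPM (log2 8.04), and Hoxb3 to 8.66, 8.004 and 9.65 CPM (6.55). Hoxb5 had 795 reads after RA against 1 before, a ratio of 641 (95% counting interval 115 to 25346). Hoxb6 had 308 against 2 (ratio 124, 34.1 to 1030).
Hoxb4 stood at 0.692, 0.333 and 0.423 CPM and after RA at 9.86, 8.73 and 12.8 CPM, below all RA shNMC libraries (19.96 to 29.7 CPM). Its rise was smaller than in shNMC cells (difference -1.99, adjusted p = 0.016) and than in shCdk8 cells (-2.0038, adjusted p = 0.014). Without replicate 1 of the shMed12 mESCs the difference from shNMC cells did not pass (adjusted p = 0.10). Hoxb13, at the far 5′ end, rose by 1.67, less than the 3.60 of shNMC cells (adjusted p = 0.025). That difference was lost with any of 5 single libraries left out (adjusted p = 0.052 to 0.071). Against shCdk8 cells it was -1.01 (adjusted p = 0.28).

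In the HoxA cluster 10 of 12 tested genes rose (median 3.20), and Evx1, a homeobox gene of the primitive streak at the end of the cluster, fell (log2 -2.50). Hoxa5 rose from 0.161 to 0.554 CPM to 12.96 to 15.3 CPM (5.37), and Hoxa4 from 0.103 to 0.262 CPM to 4.87 to 6.33 CPM (4.80). In none of the 12 did the difference from shNMC cells pass the threshold, which it did for 5.04% of all genes. The nearest was Hoxa5 (-1.87, adjusted p = 0.083).
HoxC and HoxD genes rose by smaller folds. In HoxC 5 of 8 rose (median 1.19), led by Hoxc5 (log2 4.47, 1.28 to 1.56 CPM after RA) and Hoxc4 (2.90). In HoxD 5 of 9 rose (median 1.11), led by Hoxd3 (2.11) and Hoxd1 from 0.513 to 0.623 CPM to 1.74 to 2.49 CPM (1.97). Hoxd10 stood at 0.363 to 0.795 CPM before and 0.520 to 0.656 CPM after RA. This log2 difference of 0.08 (adjusted p = 0.88) compares with 2.54 in shNMC cells, where it started at 0.132 CPM (difference -2.45, adjusted p = 0.016). That difference did not pass without replicate 2 of either mESC group (adjusted p = 0.054 in both).
Of the 30 Hox calls, those of Hoxa13, Hoxc9, Hoxc10, Hoxc13, Hoxd3, Hoxd8 and Hoxd13 were lost when single libraries were left out (adjusted p from 0.051 to 0.18). Of the 8 Hox genes that did not pass, Hoxc6, Hoxc8, Hoxd9 and Hoxd12 passed in the fit of the 18 hairpin libraries.
Partners of Hox proteins rose with them. Of 9 Meis, Pbx and Pknox genes 7 rose and 1 fell. Meis2 went from 7.02, 7.21 and 7.41 CPM to 58.5, 53.7 and 66.1 CPM (log2 3.04) and Pknox2 rose by 2.77. For both the differences from shNMC cells did not pass (-0.51 and 0.52). Pbx3 was the member whose difference passed (-0.68, adjusted p = 0.011). It went from 16.6, 16.1 and 13.8 CPM to 20.1, 19.3 and 17.3 CPM (log2 0.29, against 0.97 in shNMC cells).

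**Figure D3:**
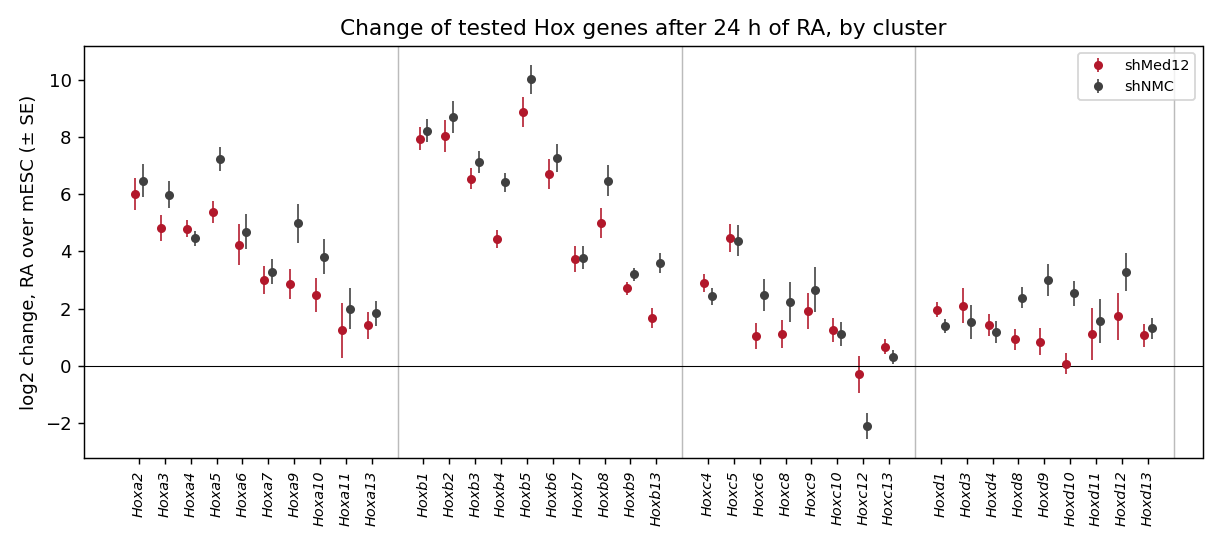
Log2 change after RA (points) with its SE (bars) of 37 tested Hox genes, by cluster, in shMed12 and shNMC cells. HoxB genes reach the highest values in both lines (Hoxb5, Hoxb2, Hoxb1), and the shMed12 points of Hoxb4, Hoxb13 and Hoxd10 lie below those of shNMC.

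Pluripotency genes fell. Of 29 core and naive factors tested 24 fell and none rose in shMed12 cells (median log2 -1.34), against 26 and 0 in shNMC cells (median -1.43). Summed over 6 pluripotency markers, shMed12 mESCs held 2665 to 2906 CPM and 1412 to 1529 CPM after RA. The shNMC libraries held 4268 to 4390 and 2044 to 2497 CPM. In bulk RNA, fewer cells of a type and less RNA per cell cannot be told apart. Pou5f1 (Oct4), the factor on which pluripotency rests, went from 607, 589 and 720 CPM to 237, 283 and 296 CPM (log2 -1.23 ± 0.12, adjusted p = 6.9e-08), close to its change in shNMC cells (-1.04, difference -0.19, adjusted p = 0.60). Nanog fell from 29.3 to 36.4 CPM to 13.7 to 15.8 CPM (-1.13).
Sox2, the partner of Oct4 that neural cells keep, fell more than in shNMC cells. It stood at 430, 454 and 431 CPM and after RA at 144, 153 and 159 CPM, against 765 to 828 and 459 to 481 CPM in shNMC cells. The 4 groups did not overlap, and shMed12 mESCs came just below RA shNMC cells. The log2 changes were -1.53 and -0.77 (difference -0.75 ± 0.11, adjusted p = 0.00019), and -1.10 in shCdk8 cells (difference -0.43, adjusted p = 0.021).
Tdh, the threonine dehydrogenase on which mESC metabolism draws, fell less. It went from 250, 243 and 230 CPM to 26.0, 27.5 and 22.5 CPM, against a mean of 9.80 CPM in RA shNMC cells (log2 -3.25 against -4.97, adjusted p = 0.0041). Zfp42 (Rex1), a naive marker, fell (log2 -2.21), as did Foxd3 (-3.71), a forkhead factor of mESCs and neural crest.

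Several genes of the primed, post-implantation state fell more than in shNMC cells. Of 14 tested 8 fell and 4 rose (median log2 -0.66), against 4 and 3 in shNMC cells (median -0.15), and the difference passed for 4 downward and 1 upward. Otx2, a factor of the epiblast and forebrain, stood at 14.7, 17.006 and 14.4 CPM in shMed12 mESCs and at 0.926, 0.731 and 0.789 CPM after RA. In shNMC cells it went from 8.33 to 13.2 CPM to 3.59 to 7.72 CPM, a change that did not pass (log2 -0.71, adjusted p = 0.092). The difference was -3.52 ± 0.53 (adjusted p = 0.00037), and -2.20 against shCdk8 cells (adjusted p = 0.018). After RA, Otx2 was lower in shMed12 cells (log2 -2.93), and before RA the lines did not differ past the threshold (0.59, adjusted p = 0.18).
Fgf5 and Pou3f1, further primed markers, fell (log2 -2.24 and -0.96) from levels above those of shNMC mESCs. Sox4 rose more than in shNMC cells (1.23 against 0.36, adjusted p = 0.0090). Dnmt3b, a de novo DNA methyltransferase, fell from 527 to 549 CPM to 266 to 278 CPM (-0.99), as in shNMC cells (-1.03) though from a higher level.

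Most genes listed for FGF and ERK signalling, which pushes mESCs out of pluripotency, fell in shMed12 cells. The list holds ligands as well as targets and feedback inhibitors. Of 19 tested 12 fell and 2 rose (median log2 -1.13). In shNMC cells 11 fell and 3 rose (median -0.73), and in shCdk8 cells 8 and 4 (median -0.21). The difference from shNMC cells passed for 2 members in the positive and 1 in the negative direction (1.74% and 3.3% of all genes). The feedback inhibitor Spry2 stood at 136, 141 and 131 CPM and after RA at 48.8, 49.7 and 44.7 CPM. Its change of -1.51 was smaller than the -2.89 of shNMC cells, where it reached a mean of 20.05 CPM (difference 1.38 ± 0.13, adjusted p = 1.3e-06). The levels before RA did not differ past the threshold (-0.13, adjusted p = 0.27). Spry4, its relative, changed by -2.61 and in shNMC cells by -2.85 (difference adjusted p = 0.77), so the difference passed for Spry2 and not for Spry4. The ligand Fgf17 went from 10.1 to 13.5 CPM to 5.49 to 7.47 CPM, against 12.4 to 0.986 CPM on average in shNMC cells (difference 2.78, adjusted p = 0.0018). Its own call in shMed12 cells (-0.87, adjusted p = 0.046) was lost under 8 of the alternatives tried. Fgf4, the main FGF of mESCs, and Etv5, an Ets factor it acts on, fell (log2 -2.13 and -1.72).
LIF pathway genes fell in part: of 16 tested 7 fell and 2 rose, against 17.5% and 19.6% of all genes. Lifr, the LIF receptor, went from 90.8 to 96.4 CPM to 28.5 to 33.6 CPM (log2 -1.62), and Socs2 by -1.95. Socs3, a direct Stat3 target, fell by 1.83 (17.5 to 20.8 CPM after RA), against -2.92 in shNMC cells, a difference that did not pass (adjusted p = 0.087). Mycn, a Myc family gene, went from 102 to 118 CPM to 13.5 to 19.11 CPM (-2.73). Myc fell less than in shNMC cells (-1.27 against -2.63, adjusted p = 0.023), a difference lost with any of 7 single libraries left out.

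**Figure D4:**
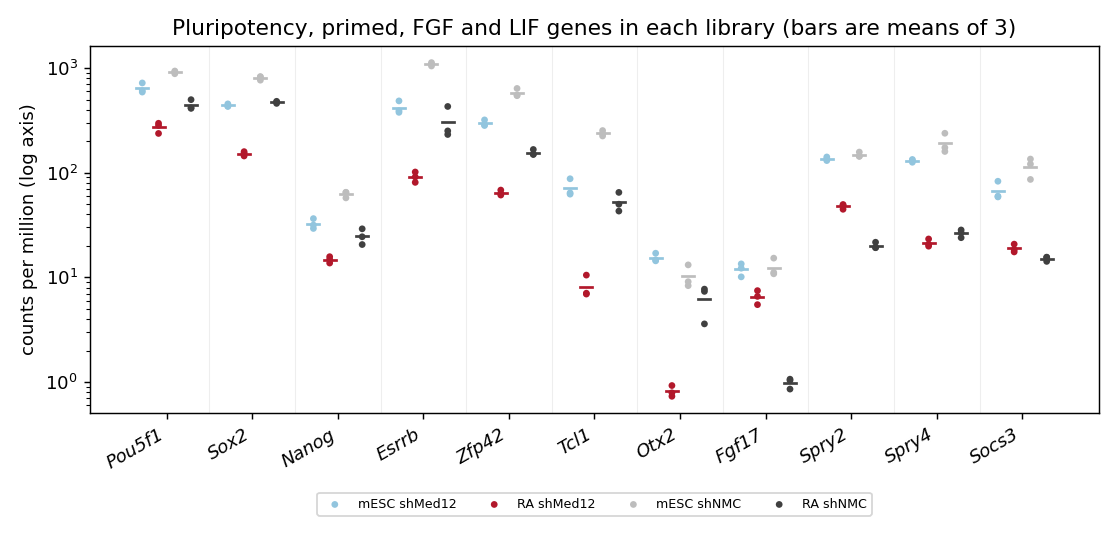
CPM on a log axis of 11 pluripotency, primed, FGF and LIF genes in each library (points, 3 per group; bars are group means). Otx2 after RA lies under 1 CPM with shMed12 and at 3.59 CPM or more with shNMC, and Spry2 and Fgf17 after RA lie lower in shNMC than in shMed12 cells.

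Most of the developmental factors listed as Polycomb targets rose. Polycomb complexes keep such genes silent in mESCs. Of 55 tested 32 rose and 3 fell (median log2 1.27), against 44 and 0 in shNMC cells (median 1.87), and the difference passed for 1 upward and 7 downward. Msx1, a homeobox target of BMP signals, went from 2.42, 2.90 and 0.826 CPM to 24.3, 24.4 and 14.2 CPM (log2 3.36). Gata2 (1.83), Tbx2 (2.27), Dlx3 (2.48) and Foxa1 (2.39) rose as well. Sox1, a neural factor, rose from 0.590 to 0.846 CPM to 3.03 to 4.66 CPM, but in shNMC cells, where it stood at 6.88 CPM, it did not pass (log2 2.40 against 0.27, difference adjusted p = 0.0013). Pax3, a factor of the dorsal neural tube, rose less than in shNMC cells (1.39 against 4.44, adjusted p = 0.0097), from 0.693 to 1.06 CPM against 0.0433 CPM on average. Olig3 (-3.86), Six2 (-2.52) and Foxl2 (-2.84) were further members whose difference from shNMC cells passed.
The 3 that fell were T, Eomes and Hand1, factors of streak, mesoderm and trophoblast. T (Brachyury) stood at 18.003, 17.4 and 3.32 CPM and after RA at 3.41, 3.53 and 1.43 CPM, so the groups overlapped by replicate 3. Its log2 change was -2.21 (adjusted p = 0.00026, and 0.058 in a fit of only the groups compared) against 1.62 in shNMC cells, where it stood at 0.375 and 1.16 CPM (difference -3.83, adjusted p = 0.00093). The 5 mesoderm markers summed to 6.69 to 23.6 CPM before and 5.74 to 8.39 CPM after RA, against 2.99 to 3.36 and 4.81 to 5.42 CPM in shNMC cells, and their part in the result was not tested. Eomes went from 28.6, 29.9 and 21.5 CPM to 17.1, 17.6 and 16.6 CPM (log2 -0.64, adjusted p = 0.038), and in shNMC cells from 5.31 to 6.31 CPM to 12.3 to 12.8 CPM. Hand1 fell from 14.9 to 18.8 CPM to 9.13 to 11.1 CPM, while no shNMC library held more than 0.679 CPM.
Genes of the Polycomb complexes themselves changed in both directions. Of 21 PRC1 genes 6 rose and 7 fell, against 9 and 7 in shNMC cells. Of 11 PRC2 genes 1 rose and 6 fell, against 2 and 9. For comparison, 19.6% of all genes rose and 17.5% fell in shMed12 cells, and 27.3% and 24.1% in shNMC cells. Phc1 (log2 -1.28), L3mbtl2 (-0.97) and the PRC2 core genes Eed (-1.03) and Suz12 (-0.57) fell, and Cbx2 (0.72) and Phc2 (0.95) rose. For these 6 the difference from shNMC cells did not pass. Among other PRC1 genes it passed for 1 upward and 1 downward, and among other PRC2 genes for 1 downward. Across all genes it passed for 1.74% upward and 3.3% downward.

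Markers of trophectoderm and of fibroblasts and smooth muscle were already high in shMed12 mESCs. The 7 trophectoderm markers summed to 528 to 674 CPM before and 642 to 837 CPM after RA, against 14.8 to 19.4 and 29.0 to 37.9 CPM in shNMC cells. Most of this was Krt18 (388 and 484 CPM on average), a keratin of simple epithelia, which overlapped between states. Among 14 trophectoderm genes 5 rose and 3 fell (19.6% and 17.5% of all genes), and in shNMC cells 10 and 1 (27.3% and 24.1% of all genes). Cdx2, the factor that sets the trophectoderm and later the tail bud, went from 7.16, 7.05 and 2.48 CPM to 32.3, 33.6 and 17.5 CPM (log2 2.33), against 0.152 and 1.44 CPM on average in shNMC cells (3.24, difference adjusted p = 0.53).
The 8 fibroblast and smooth muscle markers summed to 337 to 382 CPM and 310 to 346 CPM after RA, against 10.6 to 11.5 and 11.6 to 13.4 CPM in shNMC cells. None of these 8 was at 0 in either shMed12 group. Of 23 such genes tested 5 rose and 3 fell in shMed12 cells, against 13 and 1 in shNMC cells, and 8 differed downward. Over all genes 19.6% rose and 17.5% fell in shMed12 cells. Cav1, a coat protein of caveolae, fell from 13.1, 12.4 and 9.29 CPM to 4.80, 5.56 and 4.27 CPM (log2 -1.25). In shNMC cells it had 3 reads before and 55 after RA, a ratio of 15.4 (95% counting interval 5.01 to 77.1). Col6a2, a collagen VI chain, rose less than in shNMC cells (1.51 against 2.70, adjusted p = 0.027), a difference lost with any of 7 single libraries left out.
Extraembryonic endoderm markers (8 genes) summed to 437 to 491 and 396 to 466 CPM, and 1 of the 8 was at 0 in shMed12 mESCs. In shNMC cells they summed to 447 to 531 and 353 to 406 CPM, so before RA the lines overlapped. Of 27 such genes 7 rose and 1 fell, Foxa1 (2.39) among those that rose, while the endoderm factor Gata4 did not pass (1.27, adjusted p = 0.074). Its libraries did not overlap (3.59 to 4.99 CPM before and 10.6 to 10.96 CPM after RA), and it passed in the fit of the 18 hairpin libraries, in that of only the groups compared and with a replicate block (adjusted p from 7.2e-11 to 1.1e-05). Of 18 neural genes 4 rose and 4 fell. The summed neural markers stood at 123 to 128 and 121 to 126 CPM, against 67.6 to 74.0 and 75.0 to 84.8 CPM in shNMC cells. Over all genes 19.6% rose and 17.5% fell in shMed12 cells, so the neural counts were near those shares. Whether the standing levels of these markers bear on the smaller changes was not tested.

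Germline genes rose in part, with 10 of 22 higher and 1 lower, against 19.6% and 17.5% of all genes. Rec8, a meiotic cohesin, went from 14.9, 14.6 and 16.1 CPM to 82.1, 97.5 and 73.2 CPM (log2 2.47), and Sohlh2, a germ cell factor, by 1.43. In both the difference from shNMC cells did not pass. In the Nodal pathway Tdgf1 (Cripto, a co-receptor) stood at 527 to 549 CPM and 107 to 112 CPM after RA (-2.30). Lefty1, a Nodal antagonist, rose from 57.4 to 69.4 CPM to 210 to 353 CPM (2.06).
Cell cycle genes fell slightly. Of 28 tested 10 fell and 1 rose, against 17.5% and 19.6% of all genes. Cdk2 (-0.60), Top2a (-0.43) and Mcm3 (-0.43) were among those that fell. Of 7 CDK inhibitors 1 rose, Cdkn2c (1.49), a share near the 19.6% of all genes. In shNMC cells 4 rose (27.3% of all genes). Cdkn1c, one of those 4, stood at 36.4 and 40.01 CPM on average (0.14), with a difference from shNMC cells of -1.33 that passed. Of 9 DNA methylation and Tet genes 5 fell and 1 rose, against 17.5% and 19.6% of all genes. Tet1 fell from 612 to 796 CPM to 164 to 204 CPM (-1.95).
Metabolic lists moved in a few members. Of 18 Atf4 and stress genes 7 fell and none rose, against 17.5% and 19.6% of all genes. Slc3a2 (-0.63), Psat1 (-0.79) and Asns (-0.66), which serve amino acid supply, led those that fell. Of 22 cholesterol synthesis genes 4 rose and none fell, a share near the 19.6% of all genes that rose. Dhcr7 (0.66) was among them, and Fdps (0.45) and Sc5d (0.41), which did not pass without replicate 3 of the shMed12 mESCs (adjusted p from 0.062 to 0.096 over the libraries whose omission ended either call). In shNMC cells 0 rose and 4 fell. The difference between the lines passed for 0 members of either list (5.04% of all genes), and for Asns it was -0.30 (adjusted p = 0.22). Imprinted genes included H19, which rose from 17.6, 16.2 and 16.5 CPM to 56.7, 66.7 and 41.0 CPM. In shNMC cells it stood at 7.50 and 7.96 CPM on average (log2 1.71 against 0.09, difference adjusted p = 0.0072).
Of 24 interferon response genes 3 rose and 1 fell, against 19.6% and 17.5% of all genes. The 3 that rose were Irf7 (1.78), Oasl2 (0.92) and Psmb9 (0.62), and none of them passed without replicate 3 of the shMed12 mESCs or without replicate 1 or 2 of the RA shMed12 libraries (adjusted p up to 0.20). The RNA sensor Ddx58 (RIG-I) fell from 95.2, 98.2 and 92.6 CPM to 43.2, 40.3 and 39.7 CPM, and in shNMC cells further, to 8.73 CPM on average (log2 -1.22 against -3.17, adjusted p = 7.3e-07).

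**Figure D5:**
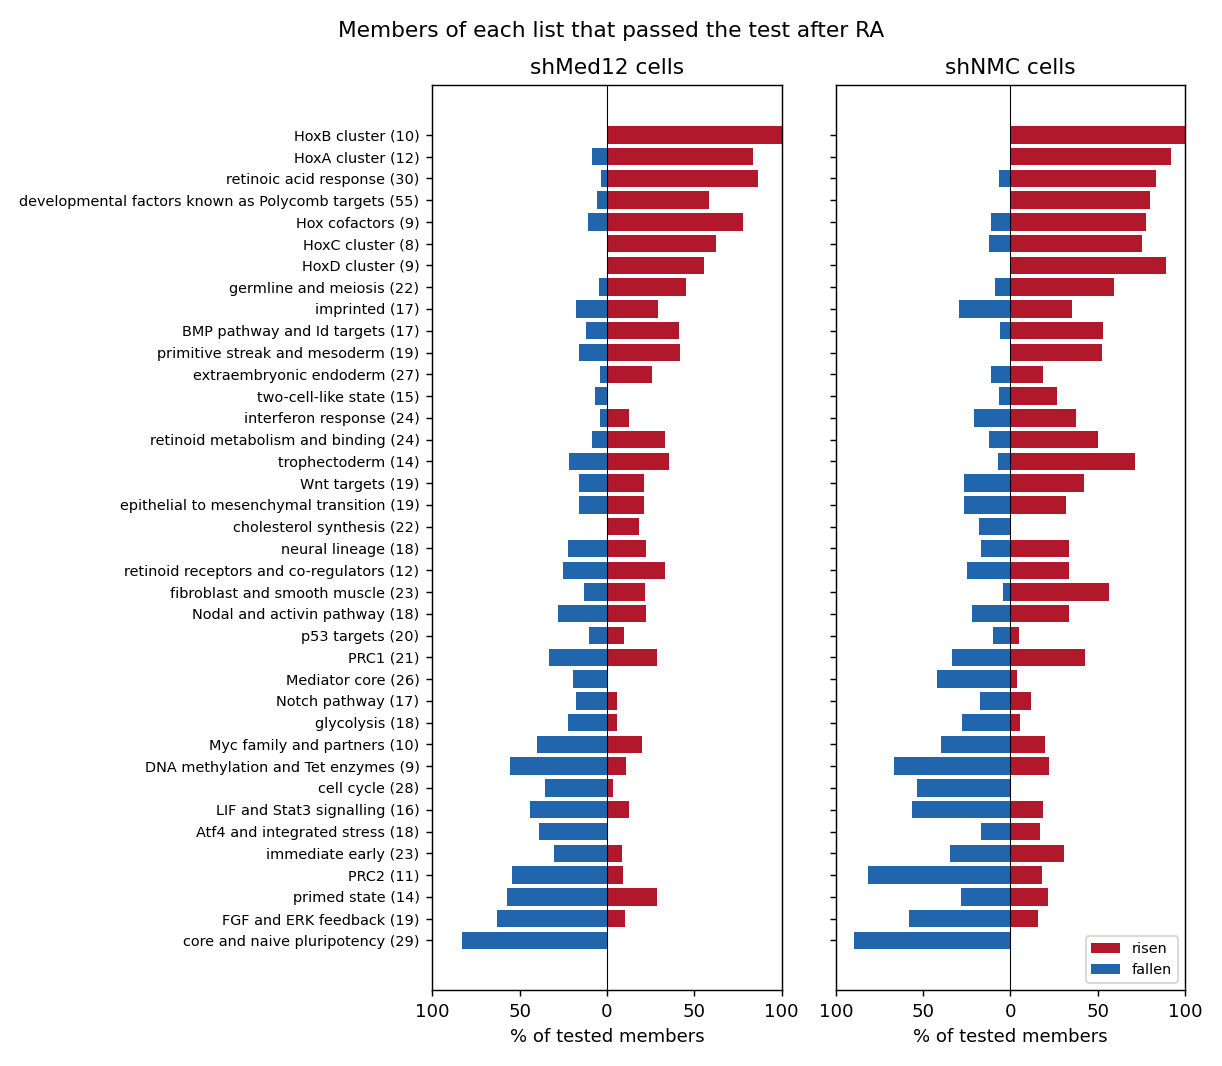
Share of the tested members of each list (number in brackets, 38 lists of at least 8 tested genes) that rose (right) or fell (left) after RA at an adjusted p under 0.05, in shMed12 and shNMC cells, ordered by the median change in shMed12 cells. The HoxB and HoxA clusters and the RA response list stand at the top and core pluripotency at the bottom. Lists share genes.

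A few genes changed in opposite directions. Among those whose difference between the lines passed, 13 rose in shMed12 and fell in shNMC cells and 28 fell in shMed12 and rose in shNMC cells. Since the choice used both changes, their values are a description. Gabrp, a subunit of the GABA-A receptor, stood out. It went from 0.369, 0.282 and 0.403 CPM to 8.47, 7.97 and 5.40 CPM in shMed12 cells and from 1.204 to 1.56 CPM to 0.071 to 0.205 CPM in shNMC cells. The log2 changes were 4.35 and -3.30, the difference 7.65 ± 0.45 (adjusted p = 7.3e-10), and in shCdk8 cells it fell (-1.43).
Of the 28 genes that fell with shMed12 and rose with shNMC, 23 were higher in shMed12 than in shNMC cells before RA (median log2 2.39), and after RA 12 were higher and 7 lower (median 0.38). Foxi3, a forkhead factor of the ectoderm, went from 7.18, 7.003 and 7.94 CPM to 2.82, 2.87 and 3.73 CPM, and in shNMC cells from 1.26 to 5.08 CPM on average (log2 -1.23 against 2.02). Slc40a1, the iron exporter ferroportin, fell from 73.7 to 96.9 CPM to 35.5 to 47.9 CPM (-1.03 against 0.76). Of the 28, 20 rose in shCdk8 cells and none fell there.
Other large differences came without opposite signs. Ms4a4d, Ccrl1 and Zfp703 rose by 1.61, 2.87 and 3.50 in shMed12 cells and by 5.22, 6.31 and 6.51 in shNMC cells. In shMed12 cells they reached 10.3 to 10.5, 11.5 to 12.1 and 33.6 to 39.9 CPM, and in shNMC cells 10.8, 7.56 and 38.6 CPM on average. Before RA all 3 were higher with shMed12, by 3.55, 4.08 and 2.91. Wfikkn1, an antagonist of myostatin-like ligands, rose more in shMed12 cells, from 0.539 to 1.11 CPM to 14.1 to 18.2 CPM (4.41 against 2.02, adjusted p = 0.0019).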

How the data were processed

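The authors deposited, for each library, unnormalized read counts by gene symbol. The submitters' processing notes name bcl2fastq 1.8.4, STAR 2.3.1z13, SAMtools 1.2, HTSeq 0.6.1p1, DESeq2 1.6.3 and the build mm9. Neither the annotation nor the strand setting of the counting is stated there or in the labels. The 5 entries per library that name no gene were left out. Genes were filtered with filterByExpr (16280 of 22609 kept), scaled by TMM and tested with edgeR 4.0.16 (R 4.3.3, robust quasi-likelihood, 24 libraries in 8 groups, 16 residual degrees of freedom, Benjamini-Hochberg). Effects are log2 with SE. The difference between lines was tested as an interaction term. The script was tested on simulated counts. Alternatives included DESeq2 1.42.0, other scalings and filters and leaving out each library.

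Named genes were fixed markers, all retinoid and Hox list members, the largest changes and differences with groups of at least 5 CPM, and, from any list holding 3 calls or more, the 4 members of smallest p. Further list members, among them Med13l, Ccnc, Eomes, Hand1, Six2, Olig3, Foxl2, Fgf5, Cdkn1c, Slc40a1, Evx1, Socs3, Pbx3 and the other promoter genes with the repeat, were named after their values were seen. Members and lists were chosen with earlier results of these data known. Some genes are not reported here.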

Additional observations from a re-analysis of the deposited data

Results flagged for a closer look

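The RA response differed between shMed12 and shNMC cells, by a test of the difference itself (edgeR quasi-likelihood, adjusted p under 0.05), for 47 of the 213 named genes reported here, 23 in the positive and 24 in the negative direction. Over all genes tested the share was 5.04%; the named genes include the largest differences, so the 47 are partly set by that choice. Differences are on the log2 scale, 3 libraries per group.

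Among regulators of RA, position and cell state, the change was more positive in shMed12 cells for Rarb (1.66), Stra8 (1.52), Cdx1 (1.11), Tdh (1.72), Sox1 (2.13), Sox4 (0.87), Wnt3a (1.88), Sp5 (2.25), Fgf17 (2.78), Fgf10 (2.02), Spry2 (1.38), Myc (1.36), Stat3 (0.43) and Smad7 (0.77). It was more negative for Cyp26a1 (-1.82), Lrat (-1.06), Hoxb4 (-1.99), Hoxb13 (-1.93), Hoxd10 (-2.45), Sox2 (-0.75), Tcl1 (-0.95), Otx2 (-3.52), T (-3.83), Pax3 (-3.06), Tet3 (-0.42) and Med12l (-1.22).

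Among the other genes it was more positive for Gabrp (7.65), Gna14 (3.07), Pou2f3 (2.41), Wfikkn1 (2.39), Ddx58 (1.96), H19 (1.62), Slc38a4 (1.12), Peg3 (0.90) and Nid1 (0.74). It was more negative for Cav1 (-5.03), Ms4a4d (-3.61), Ccrl1 (-3.44), Foxi3 (-3.25), Zfp703 (-3.01), Oasl2 (-2.41), Enpp2 (-2.35), Col6a2 (-1.20), Dusp9 (-1.12), Pmaip1 (-0.83), Pfkm (-0.64) and Stmn2 (-0.57).

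Of these differences, 15 did not pass under at least 1 alternative (adjusted p from 0.051 to 0.15). Peg3 lost its call under 13, Stat3 under 12, Pfkm under 11, Sp5 and Tcl1 under 10, Wnt3a and Stmn2 under 9, Tet3 under 8 and Myc and Col6a2 under 7. Hoxb13 lost it under 5, Med12l under 3, Lrat and Hoxd10 under 2 and Hoxb4 under 1. Most of these alternatives left out a single library; Peg3 and Stat3 were also lost with upper-quartile scaling and without a filter on low counts.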

How the results depend on the processing

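The counts of the differences between lines moved most. More positive and more negative differences from shNMC numbered 1184 and 1458 in a fit of the 18 hairpin libraries (other than shRing1b), 709 and 1528 with only the groups compared, and 1425 and 2283 with a replicate block. From shCdk8 they numbered 1145 and 1466, 880 and 1570, and 2371 and 2814. With DESeq2 more positive differences were 508 from shNMC and 483 from shCdk8. With the replicate block 5033 genes rose and 4755 fell in shMed12 cells, against 5334 and 4864 in shNMC cells. The labels do not say what a replicate number shares. The deviations of same-numbered shMed12 libraries correlated at 0.26, 0.0047 and 0.38, and 2 of 3 correlated best with their own number. Between RA shMed12 and RA shNMC libraries they correlated at 0.32, 0.067 and 0.35, and 3 of 3 did so. Between the RA and mESC libraries of shNMC, and between the mESCs of both lines, 2 of 3 did. Whether the numbers pair the samples was not tested further. With upper-quartile scaling 2400 genes fell in shNMC and 2708 in shCdk8 cells, and the median change of all genes in shMed12 cells moved from 0.03 to 0.13.
Leaving out 1 library at a time, 2422 to 2813 genes rose in shMed12 cells (1330 to 1522 by 2-fold) and 2142 to 2626 fell (439 to 482). In shNMC cells 3905 to 4385 rose and 3027 to 3446 fell, and in shCdk8 cells 3812 to 4238 and 3386 to 3635. Differences from shNMC were 136 to 255 and 324 to 575, and from shCdk8 138 to 236 and 286 to 553. Of the genes that rose at least 2-fold in shCdk8 cells, the number that rose in shMed12 cells stayed within 1.5 times its value under every alternative run; the other results on genes chosen in that line were not rerun. Some named genes whose change in shMed12 cells never passed turned sign: Med12l (0.018) and Aldh1a2 (0.058) with upper-quartile scaling. With 1 library left out, Aldh1a2 ranged from -0.15 to 0.034, Hoxc12 from -0.74 to 0.11, Aldh1a1 from -0.87 to 0.15, Sp5 from -0.27 to 0.36, Aldh1a3 from -0.22 to 0.29 and Hoxd10 from -0.19 to 0.36. The cause was not tested.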
